A study of Mus musculus with 6 samples.

Results

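The genes described here make, break down and read the second messengers cAMP and cGMP: phosphodiesterases, adenylyl cyclases, the subunits of protein kinase A (PKA), protein kinase G (PKG), the Epac exchange factors, the transcription factors Creb1 and Crem, and 5 genes that cAMP is known to induce. They were taken from a list of 45 symbols, and each gene was represented by the probe set naming it alone that had the highest mean over all arrays. Of the 45, 43 had such a probe set, out of 19938 genes on the array, and 37 passed the filter on mean level and were tested. The 6 genes below that filter were Pde1a, Pde1c, Pde3a, Adcy2, Prkg2 and Nr4a3. Prkaca, which shares its probe set with another gene, and Rapgef4 were not analysed here.

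RNA came from 6 mammary tumours of FVB female mice that all carried the MMTV-PyMT transgene, in which a mammary tumour virus promoter drives polyoma middle T antigen in mammary epithelium. Of these, 3 tumours came from mice injected intraperitoneally with DPM at 10 mg/kg and 3 from mice injected with vehicle, whose composition the labels do not give. The arms held 10 DPM and 7 vehicle mice, dosing ran from 4 weeks of age for 11 weeks with 5 days on and 2 days off, and all tumours were taken at 15 weeks. The labels call the tumours biological replicates without stating that each came from a different mouse, so the p-values measure the spread between these tumours. The drug appears in the labels only as DPM, and it is read here as dipyridamole from knowledge of the study.

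In cells, adenylyl cyclases in the membrane make cAMP when hormone receptors activate them through G proteins, and guanylyl cyclases make cGMP in response to nitric oxide or natriuretic peptides. Cyclic nucleotide phosphodiesterases hydrolyse both messengers, and each family differs in which one it prefers and how it is regulated. cAMP releases the catalytic subunits of PKA from the regulatory subunits, opens the Epac exchange factors for the small GTPase Rap1 and, through phosphorylation of CREB, induces a set of fast-response genes. Dipyridamole is known as an inhibitor of phosphodiesterases and of nucleoside uptake, so the comparison of DPM with vehicle asks whether the RNA of this pathway differed between tumours grown with and without such an inhibitor.

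Values are log2 of the intensity after quantile normalisation, so that 1 unit is a doubling. The deposited arrays had median intensities of 270 to 301, and all 8 luminal epithelial markers were above the reference for low intensity defined below. Each of the 6 arrays was nearest to an array of the other treatment group. The median absolute difference per gene was 0.0991 log2 units between DPM replicate 2 and vehicle replicate 1, 0.108 between DPM replicate 1 and vehicle replicate 2, and 0.106 between DPM replicate 3 and vehicle replicate 3. All other pairs of arrays lay between 0.125 and 0.181 log2 units apart. The labels name no batch, and what these 3 pairs share was not tested. Differences within these pairs are given below beside the leading results. For a member without overlap between the groups, the sign of these differences is fixed by that lack of overlap.

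Most of the genes of this pathway had a level above a reference for low intensity, as did most genes on these arrays. As a reference for low intensity, 1027 olfactory receptor genes had a median level of 5.88 log2 and a 95th percentile of 7.64 log2, and 3 Y-linked genes in these female mice lay between 4.42 and 6.17 log2. The highest olfactory receptor gene was at 10.26 log2, so that single genes of this kind can lie far above the reference. Of the 43 measured members, 32 had a mean above that 95th percentile (74.4%), as did 67.1% of all genes. This is a description and not a detection call, because probe sets differ in brightness at equal RNA, and the order of genes by brightness is not read as an order of abundance.

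By role, all 8 cAMP-specific phosphodiesterase genes were above the reference, as were the 3 genes Pde5a, Pde9a and Pde6d. Of the 8 phosphodiesterase genes that act on both messengers, only Pde1b and Pde2a were above it. The same held for 7 of 9 adenylyl cyclase genes, all except Adcy2 and Adcy8, for all 5 PKA subunit genes and for Rapgef3, Creb1 and Crem. Neither PKG gene was above it, with means over the 6 arrays of 7.52 log2 for Prkg1 and 6.65 log2 for Prkg2. Among the induced genes, Nr4a3 was at 6.93 log2 and below the reference while Nr4a1, Nr4a2, Sik1 and Per1 were above it.

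**Figure D1:**
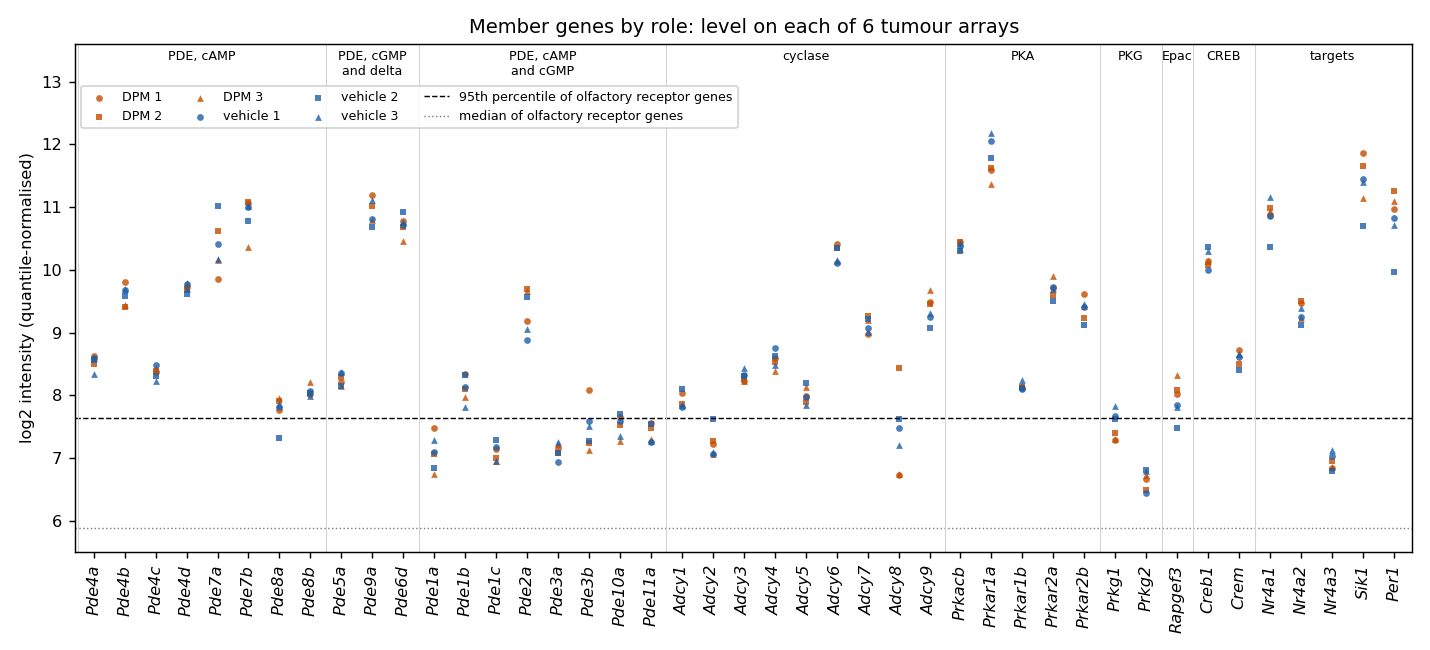
Log2 intensity (vertical axis) of the 43 measured genes, grouped by role, with 1 point per array: orange for DPM, blue for vehicle, circles, squares and triangles for replicates 1, 2 and 3. The dashed line is the 95th percentile of the olfactory receptor genes at 7.64 and the dotted line their median at 5.88, and 32 genes have a mean above the dashed line.

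No member differed past the threshold by treatment in the limma fit over all 14953 genes tested, where 0 genes passed, or 0% (smallest adjusted p of a member 0.973, of any gene 0.676). At an unadjusted p under 0.05 there were 5 of the 37 tested members (13.5%), against 578 of 14953 genes (3.87%). The 5 were Prkar1a and Prkg1, with the lower mean in DPM, and Rapgef3, Adcy9 and Per1, with the higher mean in DPM. There was no overlap between the 3 DPM and 3 vehicle tumours for these 5 and for Adcy3, or 6 of 37 members (16.2%), against 6.97% of all genes tested. Both member shares lay above the shares over all genes, and no test of that excess was made, since the members were chosen with results of these arrays known.

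The intervals set a limit on the size of the differences, under a fit that takes the arrays as independent. That fit did not block on the pairs of nearest arrays, and what they do to the intervals and p-values was not tested. Over all 37 tested members, 22 had the higher mean in DPM and 15 the lower, with a median difference of 0.05 log2 units, against 0.00055 over all genes. The difference was under 0.2 log2 units in size for 28 of 37. The 95% interval, not adjusted for the number of genes, lay within 0.5 log2 units on either side of 0 for 24 of 37 members (64.9%) and within 1 unit for 35. Over all genes those shares were 84.1% and 97.9%. The half-width of the interval ranged from 0.192 log2 units for Prkacb to 0.974 for Adcy8, with a median of 0.266.

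**Figure D2:**
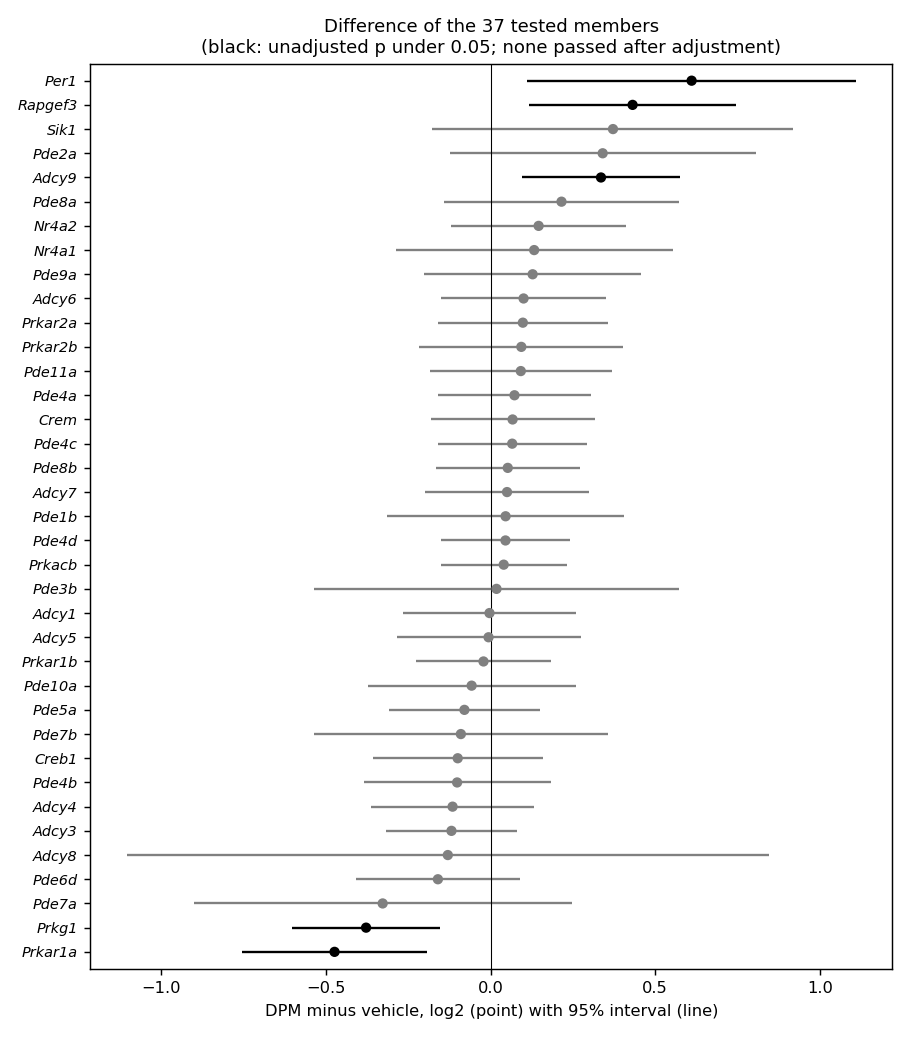
DPM minus vehicle in log2 units (horizontal axis) for the 37 tested genes, ordered by size, with points for the difference and lines for the 95% interval from limma (n = 3 tumours each). The 5 genes in black have an unadjusted p under 0.05 and intervals that exclude 0, from Per1 at 0.61 to Prkar1a at -0.47, and none passed after adjustment.

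Among the cAMP-specific phosphodiesterases, Pde4a, Pde4c and Pde4d of the Pde4 family varied little between tumours and Pde4b more. Pde4d, which encodes a widely expressed and rolipram-sensitive enzyme, read 9.73, 9.70 and 9.79 in the DPM tumours and 9.77, 9.62 and 9.70 in vehicle tumours. These values overlapped, and the difference of 0.05 log2 units had a 95% interval from -0.15 to 0.24. A further probe set of Pde4d differed by 0.02 log2 units and the dimmest of its 3 by 0.29 (SE 0.19), with limma adjusted p = 1 for each. Pde4a and Pde4c differed by 0.07 log2 units each, with intervals ending at 0.30 and 0.29. Pde4b, the form abundant in leukocytes, read 9.81, 9.41 and 9.44 in DPM and 9.69, 9.58 and 9.70 in vehicle tumours. Its highest value was in DPM replicate 1 and its lowest in DPM replicate 2, so that the groups overlapped.

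The Pde7 and Pde8 families also hydrolyse cAMP and resist rolipram, the classical inhibitor of Pde4. Pde7a varied most of all the phosphodiesterases, at 9.86, 10.61 and 10.16 in DPM and 10.42, 11.02 and 10.18 in vehicle tumours. The lowest value was in DPM replicate 1 and the highest in vehicle replicate 2, and the difference of -0.33 log2 units (SE 0.25) was -0.09 without vehicle replicate 2. Pde7b read 11.07, 11.08 and 10.36 in DPM and 11.00, 10.77 and 11.02 in vehicle tumours, with DPM replicate 3 alone at the bottom.

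DPM replicate 3 also stood lowest for fibroblast markers, with 8 of 8 above the reference and none at 0. The fibroblast sum was 5447 there, against 9521 and 11089 on the other DPM arrays and 9372 to 11628 in vehicle tumours. The highest sum, 11628, was in vehicle replicate 2, where Pde7b read 10.77, below all tumours except DPM replicate 3. All 8 had the lower mean in DPM, with a median difference of -0.30 log2 units and 0 without overlap. The summed macrophage, smooth muscle, adipocyte and lymphocyte markers were also lowest in DPM replicate 3. The part of fibroblast or other cell content in the Pde7b value was not tested. In bulk tumours, fewer cells of a type and less RNA per cell cannot be told apart. Pde8a and Pde8b differed by 0.22 (SE 0.15) and 0.05 (SE 0.09) log2 units, and the Pde8a difference was 0.04 without vehicle replicate 2.

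The values of Pde5a, Pde9a and Pde6d overlapped between the groups. Pde5a, the sildenafil-sensitive cGMP phosphodiesterase, read 8.20, 8.28 and 8.15 in DPM and 8.36, 8.15 and 8.37 in vehicle tumours, with a 95% interval from -0.31 to 0.15. Pde9a, an enzyme of very high affinity for cGMP, read 11.19, 11.02 and 10.79 in DPM and 10.81, 10.68 and 11.11 in vehicle tumours. The groups overlapped, and the difference of 0.13 log2 units had an SE of 0.14. Pde6d encodes no catalytic subunit but a chaperone of prenylated proteins, Ras among them. It read 10.77, 10.68 and 10.46 in DPM and 10.71, 10.92 and 10.76 in vehicle tumours, a difference of -0.16 log2 units (SE 0.11, limma adjusted p = 1). Within the pairs of nearest arrays the difference of Pde6d was -0.146, -0.035 and -0.300 log2 units, in the order of DPM replicates 1, 2 and 3.

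Of the phosphodiesterases that act on both messengers, Pde2a and Pde3b varied between tumours. Pde2a, which cGMP stimulates, read 9.18, 9.69 and 9.66 in DPM and 8.88, 9.56 and 9.06 in vehicle tumours. Vehicle replicate 2 lay among the DPM values, so that the groups overlapped, and the difference was 0.34 log2 units (SE 0.20). It was 0.54 without vehicle replicate 2 and 0.20 without vehicle replicate 1. Within the pairs of nearest arrays Pde2a differed by -0.38, 0.80 and 0.59 log2 units, in the order of DPM replicates 1, 2 and 3. Pde1b, activated by calcium and calmodulin, differed by 0.05, Pde10a by -0.06 and Pde11a by 0.09 log2 units.

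Pde3b, which insulin activates in fat cells to restrain lipolysis, read 8.08, 7.24 and 7.12 in DPM and 7.59, 7.28 and 7.52 in vehicle tumours. DPM replicate 1 was the highest and the only DPM array above 7.64, the reference, while the mean difference was 0.02 log2 units. Adipocyte markers were highest in the same tumour. With 5 of 7 measured markers above the reference, none at 0, and Adipoq and Lep below it, their summed intensity was 4218 in DPM replicate 1, 1589 and 1549 on the other DPM arrays and 1734 to 2369 in vehicle tumours. Without DPM replicate 1 the difference of Pde3b was -0.28 log2 units. The part of fat content in the Pde3b value was not tested. Pde1a, Pde1c and Pde3a, below the filter, differed by 0.02, -0.11 and 0.06 log2 units in the fit without that filter.

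Among the adenylyl cyclases, Adcy9 had the higher mean and Adcy3 the lower mean in DPM tumours, both without overlap. Adcy9, a widely expressed cyclase that is poorly stimulated by forskolin, read 9.49, 9.46 and 9.68 in DPM and 9.25, 9.07 and 9.30 in vehicle tumours. All DPM values lay above all vehicle values, and the mean was 1.26 times the vehicle mean, a difference of 0.34 log2 units (SE 0.10, limma adjusted p = 1). Within the pairs of nearest arrays it was 0.42, 0.21 and 0.38 log2 units. Adcy3, the cyclase of olfactory cilia that many other tissues also express, read 8.22, 8.25 and 8.23 in DPM and 8.33, 8.30 and 8.43 in vehicle tumours. All DPM values lay below all vehicle values, and the difference was -0.12 log2 units (SE 0.09, limma adjusted p = 1).

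The other cyclases overlapped between the groups. Adcy6, which calcium inhibits, read 10.42, 10.34 and 10.14 in DPM and 10.10, 10.35 and 10.15 in vehicle tumours, and Adcy5, its close relative, differed by -0.01 log2 units. Adcy7 and Adcy4, which the beta and gamma subunits of G proteins stimulate, differed by 0.05 (SE 0.11) and -0.12 (SE 0.11) log2 units. Adcy1, which calcium and calmodulin stimulate, differed by -0.0035 log2 units. Adcy8, a further calmodulin-stimulated cyclase, read 6.73, 8.43 and 6.74 in DPM and 7.47, 7.62 and 7.20 in vehicle tumours. Its value in DPM replicate 2 was the only one above the reference, its spread of 1.70 log2 units was the widest of all tested members, and its interval ran from -1.10 to 0.84. The difference of -0.13 log2 units became -0.70 without DPM replicate 2 and turned to 0.15 without DPM replicate 1, with limma adjusted p = 0.789 and 1. Adcy2, below the filter, differed by -0.08 log2 units.

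Among the PKA genes, Prkar1a stood out. It encodes the type I alpha regulatory subunit, which holds the catalytic subunits inactive and whose loss in humans gives the tumour syndrome Carney complex. Prkar1a read 11.58, 11.62 and 11.37 in DPM and 12.05, 11.78 and 12.18 in vehicle tumours. All DPM values lay below all vehicle values, and the DPM mean was 72.0% of the vehicle mean, a difference of -0.47 log2 units (SE 0.12, limma adjusted p = 0.973). An exact two-sided permutation of the arrays gave p = 0.1, the smallest that 3 against 3 arrays can give and the value that any gene without overlap gets. Within the pairs of nearest arrays the difference was -0.19, -0.43 and -0.81 log2 units. Without both arrays numbered 3 it was -0.31 log2 units, and its unadjusted p was then above 0.05.

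The other PKA subunits overlapped between the groups. The catalytic subunit gene Prkacb read 10.45, 10.44 and 10.33 in DPM and 10.37, 10.30 and 10.43 in vehicle tumours, with a 95% interval from -0.15 to 0.23, the narrowest of all members. Prkar1b, Prkar2a and Prkar2b, which encode the other regulatory subunits, differed by -0.02 (SE 0.09), 0.10 (SE 0.11) and 0.09 (SE 0.13) log2 units. Prkar2b, the regulatory form abundant in fat cells, had its highest value, 9.61, in DPM replicate 1, the tumour with the highest adipocyte marker sum. Other tumours did not keep that order. Prkar2b was lowest, 9.12, in vehicle replicate 2 with a sum of 1886, and read 9.46 in vehicle replicate 3 with a sum of 1734. The part of fat content in the Prkar2b value was not tested.

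Prkg1, the kinase through which cGMP relaxes smooth muscle, read 7.28, 7.40 and 7.30 in DPM and 7.68, 7.62 and 7.83 in vehicle tumours. All DPM values lay below all vehicle values and below the reference of 7.64, while 2 of the 3 vehicle values were above it. The difference was -0.38 log2 units (SE 0.10, limma adjusted p = 0.973), or 76.9% of the vehicle mean. This probe set is in the range of silent genes, where the size of a fold is uncertain. An exact two-sided permutation gave p = 0.1, the value that lack of overlap fixes. Within the pairs of nearest arrays the difference was -0.33, -0.28 and -0.53 log2 units.

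Markers of smooth muscle, where Prkg1 is known to act, and of other cell types were set beside it. Smooth muscle and pericyte markers, 7 of 8 above the reference and none at 0, summed to 4127 to 4719 in DPM and 4465 to 4865 in vehicle tumours, which overlapped. By gene, 6 of these 8 had the lower mean in DPM. Acta2 at -0.25 log2 units (SE 0.11) and Tagln at -0.16 (SE 0.10) were without overlap. Basal and myoepithelial markers, 6 of 6 above the reference and none at 0, summed to 3506 to 5023 in DPM and 5502 to 7425 in vehicle tumours, without overlap. By gene, only Krt14 of these 6 was without overlap, at -0.77 log2 units (SE 0.15, limma adjusted p = 0.867), and Mylk had the higher mean in DPM. All 8 macrophage markers had the lower mean in DPM, with C1qc without overlap at -0.30 log2 units (SE 0.11). Of the 8 luminal markers, 5 had the lower mean in DPM and 3 the higher, with a median difference of -0.03 log2 units. Among these 3, Elf5 was higher in DPM without overlap at 0.32 (SE 0.11). Acta2, Tagln, Mylk, C1qc and Elf5 are named after their values were seen. None of them passed the threshold in limma, where C1qc and Elf5 had adjusted p = 1 each. The part of smooth muscle, basal, macrophage, fibroblast and luminal content in the values of the 6 non-overlapping members was not tested. Prkg2, below the filter, differed by -0.05 log2 units.

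Rapgef3, which encodes Epac and loads Rap1 with GTP when cAMP binds, read 8.02, 8.09 and 8.33 in DPM and 7.85, 7.47 and 7.82 in vehicle tumours. All DPM values lay above all vehicle values, with the lowest in vehicle replicate 2. The DPM mean was 1.35 times the vehicle mean, a difference of 0.43 log2 units (SE 0.14, limma adjusted p = 1). It was 0.55, 0.24 and 0.51 log2 units within the pairs of nearest arrays and 0.31 without vehicle replicate 2. Endothelial markers, a cell type known to use Epac, were all 8 above the reference with none at 0, and summed to 4001 to 4962 in DPM and 3926 to 4410 in vehicle tumours. These sums overlapped between the groups. By gene, 6 of the 8 had the higher mean in DPM and 2 the lower, with a median difference of 0.10 log2 units and 0 without overlap. The part of endothelial content in the Rapgef3 value was not tested.

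**Figure D3:**
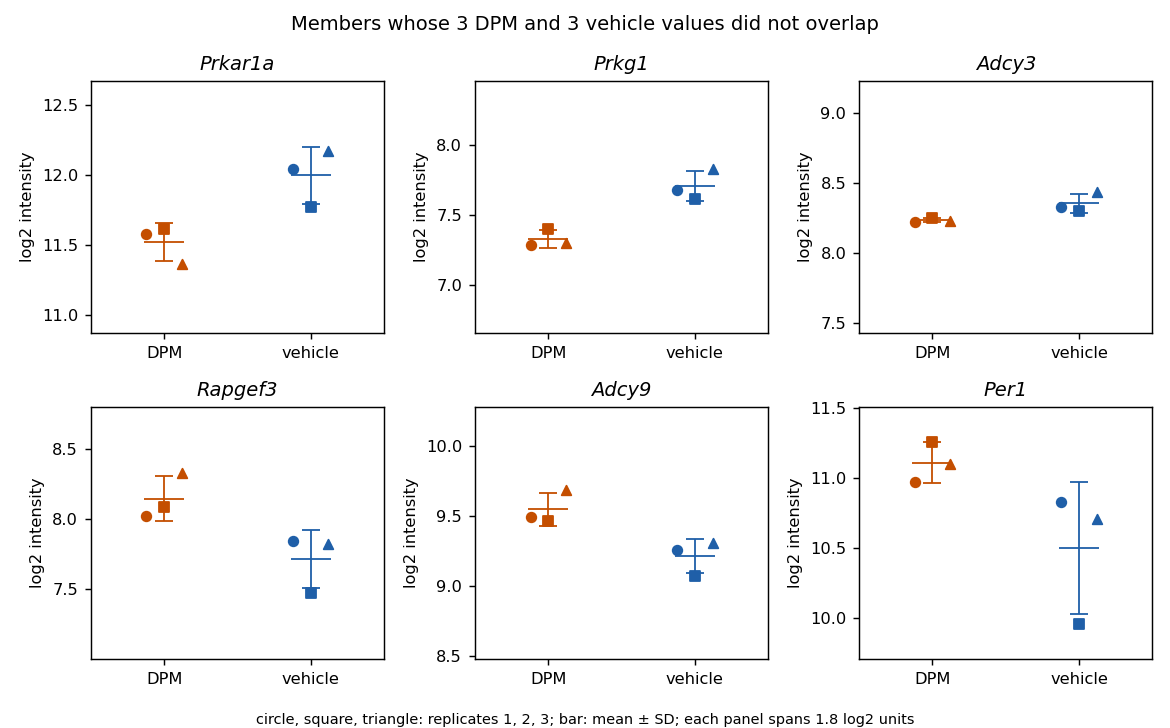
Log2 intensity per tumour (vertical axes) of the 6 genes without overlap between DPM (orange) and vehicle (blue) tumours, with points for replicates 1 to 3 and bars for the mean ± SD (n = 3 each). Prkar1a, Prkg1 and Adcy3 lie lower in DPM tumours, Rapgef3, Adcy9 and Per1 higher, and vehicle replicate 2 (square) is the lowest point for the last 3.

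Creb1, the factor that PKA phosphorylates, read 10.14, 10.08 and 10.13 in DPM and 9.99, 10.37 and 10.30 in vehicle tumours, which overlapped. Crem differed by 0.07 log2 units (SE 0.11), and its repressor isoform ICER, made from an internal start site, was not separated by this probe set. Among the genes that CREB induces, the 4 that were tested all had the higher mean in DPM tumours, and all 4 had their lowest value in vehicle replicate 2. Without that array the 4 genes no longer shared a direction. Nr4a1 turned to -0.08 log2 units, while Nr4a2, Sik1 and Per1 stayed higher in DPM at 0.08, 0.13 and 0.34. None passed the threshold, and only Per1 had an unadjusted p under 0.05.

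CREB binds the cAMP response element TGACGTCA, whose core TGACG is contained in it on both strands. The 250 bases before the start sites of genes, from RefSeq on GRCm38.p6, were searched for both strings on both strands. A window was found for 36 of the 45 members, and for 4 of the 5 induced genes. The full element was in 1.55% of all 32851 windows and the core in 17.8%, with 3 or more cores in 0.688%. Among the members, 18 of 75 windows held a core (24.0%). Only Nr4a1, Nr4a2, Nr4a3 and Prkar1a had a window with 3 or more, and only Prkar1a had the full element, in 1 of its 6 windows. The windows of 3 induced genes and of Prkar1a are printed 5′ to 3′ on the gene's strand, with the core in capitals, because Per1 and Prkar1a had the largest differences among the targets and the PKA genes, and Nr4a1 and Nr4a2 held the most cores among the tested targets with a window. For genes with several windows the one with most cores is shown.
Nr4a1 (chr15:101266596-101266845, plus strand, 4 cores): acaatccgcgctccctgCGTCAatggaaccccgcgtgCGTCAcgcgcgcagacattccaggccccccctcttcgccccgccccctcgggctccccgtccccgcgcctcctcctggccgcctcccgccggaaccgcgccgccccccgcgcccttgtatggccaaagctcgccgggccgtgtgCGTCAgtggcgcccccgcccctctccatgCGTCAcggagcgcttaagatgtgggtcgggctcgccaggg
Nr4a2 (chr2:57124004-57124253, minus strand, 4 cores): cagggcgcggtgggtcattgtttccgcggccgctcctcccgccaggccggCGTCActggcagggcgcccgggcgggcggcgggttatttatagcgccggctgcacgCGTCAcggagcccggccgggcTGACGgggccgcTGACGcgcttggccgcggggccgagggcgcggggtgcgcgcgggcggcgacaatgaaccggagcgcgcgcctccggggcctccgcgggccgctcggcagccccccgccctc
Per1 (chr11:69098699-69098948, plus strand, 1 core): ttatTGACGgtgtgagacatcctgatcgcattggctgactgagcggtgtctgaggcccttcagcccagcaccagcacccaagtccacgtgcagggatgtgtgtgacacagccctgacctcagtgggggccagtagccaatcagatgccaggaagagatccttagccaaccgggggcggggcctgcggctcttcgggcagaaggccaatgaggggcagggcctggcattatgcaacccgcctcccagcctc
Prkar1a (chr11:109650699-109650948, plus strand, 1 full element and 1 further core): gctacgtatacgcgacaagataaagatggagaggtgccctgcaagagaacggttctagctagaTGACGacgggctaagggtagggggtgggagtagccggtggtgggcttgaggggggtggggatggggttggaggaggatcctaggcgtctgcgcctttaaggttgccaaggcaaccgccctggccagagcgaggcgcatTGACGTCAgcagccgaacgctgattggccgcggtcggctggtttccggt
A match is a string of letters and not a measured binding site.

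Per1, a circadian clock gene with fast induction by cAMP, whose printed window has a single core, read 10.97, 11.26 and 11.10 in DPM and 10.83, 9.96 and 10.71 in vehicle tumours. All DPM values lay above all vehicle values, and vehicle replicate 2 was far below the rest. The DPM mean was 1.53 times the vehicle mean, a difference of 0.61 log2 units (SE 0.22, limma adjusted p = 1). Without vehicle replicate 2 the difference was 0.34 log2 units, and without DPM replicate 2 it was 0.54 and its unadjusted p was above 0.05. Within the pairs of nearest arrays it was 1.01, 0.43 and 0.39 log2 units.

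Sik1, a kinase that phosphorylates the coactivators of CREB and so limits its own induction, read 11.86, 11.65 and 11.15 in DPM and 11.44, 10.71 and 11.40 in vehicle tumours. The groups overlapped through DPM replicate 3, and the difference of 0.37 log2 units (SE 0.24) became 0.13 when vehicle replicate 2 was left out, and 0.68 without both arrays numbered 3. Nr4a1, an orphan nuclear receptor whose window has 4 cores, read 10.88, 10.98 and 10.93 in DPM and 10.86, 10.37 and 11.17 in vehicle tumours. Its DPM values lay close together and inside the vehicle range. Nr4a2, with 4 cores as well, read 9.48, 9.50 and 9.23 in DPM and 9.25, 9.11 and 9.40 in vehicle tumours, a difference of 0.15 log2 units (SE 0.12). Nr4a3, below the filter, differed by -0.10 log2 units.

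Other genes known to respond to cAMP or CREB did not share that direction. Of 10 such genes tested, among them immediate early factors such as Egr1, 3 had the higher mean in DPM and 7 the lower, with a median difference of -0.16 log2 units, and 0 were at an unadjusted p under 0.05 in limma. Egr1, a zinc finger factor, differed by -0.36 log2 units (SE 0.17), and Ppargc1a, a coactivator of mitochondrial genes, by -0.37 (SE 0.20). Fos, named after its values were seen, was highest in vehicle replicate 1 at 10.43 and lowest in vehicle replicate 2 at 8.93, so that its whole range lay within the vehicle group. Fosb, Dusp1, Btg2 and Ier2, also named after their values were seen, had their lowest value in vehicle replicate 2 as well. Junb, Egr1, Ppargc1a, Pck1 and Atf3 were lowest in a DPM tumour. A low value in vehicle replicate 2 was thus not particular to the tested members.

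**Figure D4:**
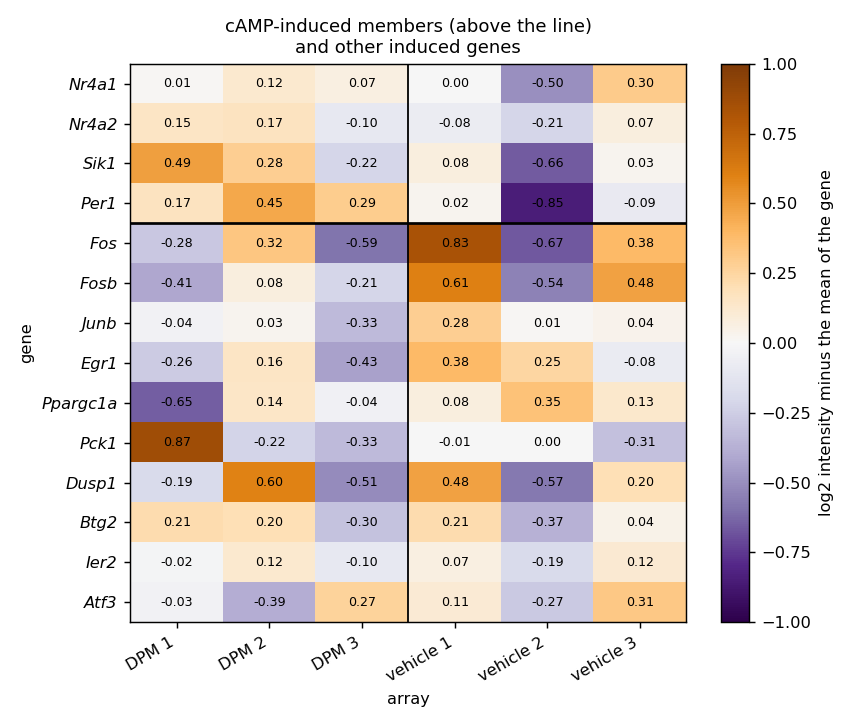
Log2 intensity minus the mean of the gene over 6 arrays (colour and printed value) for 4 cAMP-induced members above the line and 10 other induced genes below it, with 1 column per array. Vehicle replicate 2 is the lowest column for the 4 members, among them Per1 at 9.96 log2 before centring. It is also the lowest for Fos, Fosb, Dusp1, Btg2 and Ier2, and Fos differs by over 1 log2 unit between vehicle arrays.

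Several members varied between tumours more than other genes of like brightness. The range over the 6 arrays exceeded 1 log2 unit for 4 of 37 members (10.8%), namely Adcy8, Per1, Pde7a and Sik1, against 4.05% of all genes tested. For 10 members the range lay in the top 10% of genes of like mean level. At the other end, Prkacb, Prkar1b and Pde4d had ranges of 0.15, 0.15 and 0.17 log2 units, in the bottom 10%. Vehicle replicate 2 held the lowest value for 14 of the 37 members (37.8%), against 20.1% of all genes, and DPM replicate 1 the highest for 11 (29.7%), against 16.4%.

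**Figure D5:**
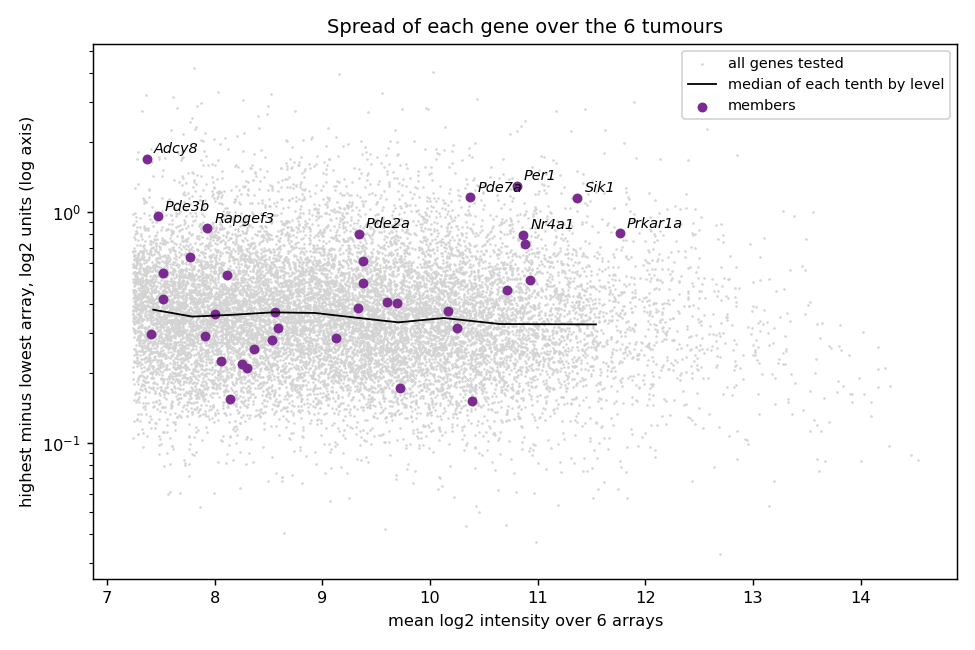
Range over the 6 tumours (highest minus lowest array, log2 units, on a log axis) against mean log2 intensity, for the 14953 genes tested (grey) and the 37 members (purple), with the median range of genes binned by level as a line. Adcy8 has the widest range of the members at 1.70 and Prkacb the narrowest at 0.15.

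The rest of the pathway, 64 further genes in 8 lists, gave no call. Of 62 with a probe set, 49 were tested; the DPM mean was the higher for 21 and the lower for 28, with a median difference of -0.02 log2 units and 0 at an unadjusted p under 0.05 in limma. Npr2, a receptor guanylyl cyclase for natriuretic peptide, read 9.49, 9.88 and 9.13 in DPM and 9.70, 9.99 and 9.94 in vehicle tumours, a difference of -0.38 log2 units (SE 0.18). Gucy1a2, a subunit of the nitric oxide receptor, differed by -0.19 (SE 0.10). Prkx, a kinase related to the PKA catalytic subunits, differed by -0.20 (SE 0.11) and Wasf1, a scaffold that anchors PKA to actin, by -0.28 (SE 0.17). The 8 CREB relatives, coactivators and kinases of Crtc proteins differed by -0.07 to 0.12 log2 units, the latter for the coactivator Crtc1, with all intervals within 0.5 units of 0. Rap1a, the GTPase that Epac activates, differed by 0.15 (SE 0.13) and the inhibitory G protein gene Gnai1 by -0.11 (SE 0.12).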

How the data were processed

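RNA of 6 tumours was measured on 1-colour Affymetrix arrays, from 100 ng of total RNA each per the labels. The authors deposited 1 linear intensity per probe set and array, as whole numbers. For background, probe summary and scaling, methods were not given in the sources used here. Per its annotation table, the array named 1 gene for 21789 of 35556 probe sets, several for 1621 and none for 12146. Probe sets naming several genes or none were left out.

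Values under 1 were set to 1, and log2 values were quantile-normalised between arrays. The probe set with the highest mean represented each gene, and genes with a mean under the 25th percentile (7.24 log2) were left out. DPM and vehicle were compared with limma 3.58.1 in R 4.3.3 (lmFit, eBayes with an intensity trend, Benjamini-Hochberg over 14953 genes, threshold 0.05). Only members without overlap between the groups were also given a two-sided exact permutation test, and that choice fixes its p at 0.1. The fit was tested on simulated data, with arrays drawn independently and changes larger than the difference of any member. That test does not cover smaller changes or pairs of alike arrays. The precision is limited by 3 arrays per group.

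All members could be named, and of each further pathway list up to 2 genes with the smallest p. Genes named outside this rule are marked in the text. Members and lists were chosen with earlier results of these data known. Alternatives covered the filter, normalisation, value added before log2, choice of probe set, eBayes setting, array weights, a replicate block and leaving out arrays. Replicate numbers matched the pairs of nearest arrays only for the arrays numbered 3. Deviations from group means correlated at -0.12, 0.11 and 0.371 for arrays numbered 1, 2 and 3. Within the pairs of nearest arrays they correlated at 0.166, 0.218 and 0.371, in the order of DPM replicates 1, 2 and 3. Promoter windows came from RefSeq (GRCm38.p6), not from the array's own annotation.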

Additional observations from a re-analysis of the deposited data

How the results depend on the processing

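No gene passed the threshold in limma under any of the alternatives run, and the smallest adjusted p of a member over them was 0.314. At an unadjusted p under 0.05 there were 5 members with all arrays and 5 to 6 when each array was left out in turn. There were 7 with a replicate block, although replicate numbers match the nearest pairs only for number 3, and 7 without both arrays numbered 3. With no between-array normalisation the count was 4. Non-overlapping members numbered 6 with all arrays, and 5 under median centring and with no between-array normalisation. They numbered 8 to 11 when 1 array was left out and 14 without both arrays numbered 3, where fewer arrays make overlap less likely by construction. Shares over all genes were not computed under these alternatives, so these counts are not read as a result about the members. A filter at the 50th percentile left 3 members at an unadjusted p under 0.05 and 3 non-overlapping, because Rapgef3, Prkg1 and Adcy3 lie below it. Of the 37 tested members, 22 kept their sign under every alternative run, the 6 non-overlapping ones among them, and 15 changed it in some. For the 6, leaving out arrays, array weights, a block or an eBayes setting could not change the sign, because their values do not overlap. Adcy9 had an unadjusted p above 0.05 with no between-array normalisation, at 0.32 log2 units, and the cause was not tested. With 3 arrays per group, the least precise differences of tested members are those of Adcy8, Pde7a, Pde3b, Sik1 and Per1, with SEs from 0.22 to 0.42 log2 units.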

Other observations

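Other clock genes were set beside Per1, chosen after its values had been seen. All 10 were measured, 3 had the higher mean in DPM and 0 were without overlap between the groups. Per2, the closest relative of Per1, read 10.23, 9.82 and 9.72 on the DPM and 9.93, 9.42 and 9.96 on the vehicle arrays, a difference of 0.15 log2 units (SE 0.18). Its lowest value, like that of Per1, was in vehicle replicate 2. Dbp and Nr1d1, output and repressor genes of the clock, differed by 0.06 (SE 0.15) and -0.08 (SE 0.12) log2 units, and Bmal1, the activator of the Per genes, by -0.13 (SE 0.15). The labels used here give no time of day for tumour collection.

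The 3 pairs of nearest arrays, each of 1 DPM and 1 vehicle tumour, also stood out in the deposited intensities before normalisation. Their median absolute differences were 0.117, 0.118 and 0.125 log2 units, against 0.162 to 0.27 for all other pairs. The share of probe sets with the identical deposited intensity was 2.69% to 2.83% within these pairs and 1.18% to 1.62% in the others.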
